A study of Pleurotus ostreatus with 9 samples.

Results

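The comparison described here sets mycelium of the oyster mushroom Pleurotus ostreatus treated with both butyl benzyl phthalate (BBP) and piperonyl butoxide (PB) against mycelium treated with BBP. Its members were chosen by annotation class and level alone: every mRNA row with a mean FPKM (fragment counts scaled for gene length and for the library's total) of at least 1 over the 9 libraries of the series. There were 9397 such genes of 10682 rows in all, and the 3 libraries with BBP and PB were set against the 3 libraries with BBP.

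Strain GEMB-PO1 was used throughout. Every culture grew in liquid medium holding glucose at 20 g/L and both peptone and yeast extract at 5 g/L, shaken at 180 rpm and 28 °C, and mycelium was taken on day 3. Control cultures got no chemical, and no vehicle is named. The BBP cultures got BBP, at 50 mg/L by the series design and at 200 mg/L by the sample protocols, and the values below are given without a dose. The third group got the same BBP together with 1 mM PB. All 9 libraries carry 1 batch label. No library with PB and without BBP was analysed here, so a response to PB itself and a response to PB in the presence of BBP cannot be told apart. The design calls the replicates biological without saying whether they were separate flasks, and the p-values measure the spread between these libraries.

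BBP is a phthalate ester used as a plasticizer, and a white-rot fungus such as P. ostreatus can attack such compounds with oxidative enzymes. PB carries a methylenedioxyphenyl group that cytochrome P450 enzymes convert into a species that binds their heme iron, which is why it serves as a P450 inhibitor and as an insecticide synergist. Cytochrome P450 enzymes insert oxygen into foreign compounds and into the cell's own lipids, and the sterol demethylase CYP51 of fungi belongs to the same family.

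Total counts per library ranged from 38098599 to 49161706. The 3 libraries with PB lay close together. On the first principal component of log2 CPM (counts scaled to the library total) in the 6 libraries compared, which held 65.2% of the variance, they stood at 32.3 to 34.84 against -41.16 to -22.69 for BBP. BBP replicate 2 was the BBP library nearest to them, and it stood apart on the second component (15.8%), at -33.33 against 3.376 and 21.88 for the other BBP libraries. Where leaving it out ended a call or strongly moved a change named below, that is stated. The library scaling factors (TMM) were 0.9184 to 0.9419 with PB and 0.983 to 1.015 with BBP, so the deposited FPKM, which follow total counts, give PB levels slightly below those of the scaled counts. The mycelium label was checked against a few stage markers. The vegetative mycelium hydrophobin Vmh2 (PLEOSDRAFT_1091049) stood at 569.9, 611 and 843 FPKM in the control libraries. It was lower with BBP and at or near 0 with PB, so it gives no check of the label in the PB libraries. The fruiting-stage proteins pleurotolysin B (PLEOSDRAFT_1090161) and an ostreolysin-like protein (PLEOSDRAFT_1090164) stood at most at 13.4 and 5.53 FPKM in any library, and neither passed the test between BBP and BBP with PB. The list of aegerolysin and flammutoxin genes had 3 tested members. Its remaining member passed the test and was lower with PB than with BBP (log2 change -1.36), without overlap in FPKM.

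Adding PB changed 1923 of the 9397 genes, or 20.5%, at a Benjamini-Hochberg adjusted p under 0.05 in edgeR's quasi-likelihood test. Of these 939 were higher (9.99%) and 984 lower (10.5%), and 311 (3.31%) rose and 465 (4.95%) fell by at least 1 log2 unit. The median change over all genes tested was -0.01 on the log2 scale. With total counts as the sole scaling that median moved to -0.12 and the calls to 618 higher and 1324 lower, and limma on log2(FPKM + 1) called 653 higher and 1231 lower. None of the alternatives called a gene in the opposite direction. FPKM of the 3 and 3 libraries did not overlap for 4256 genes (45.3%), 1470 of them higher (15.6%) and 2786 lower (29.6%). Below, a change is the log2 difference between BBP with PB and BBP ± SE, 3 libraries each. The SE is the size of the change divided by the square root of the test's F statistic. It comes from the fit over all 9 libraries, so the spread between control libraries enters it too. In bulk samples, fewer cells of a kind and less RNA per cell cannot be told apart.

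**Figure D1:**
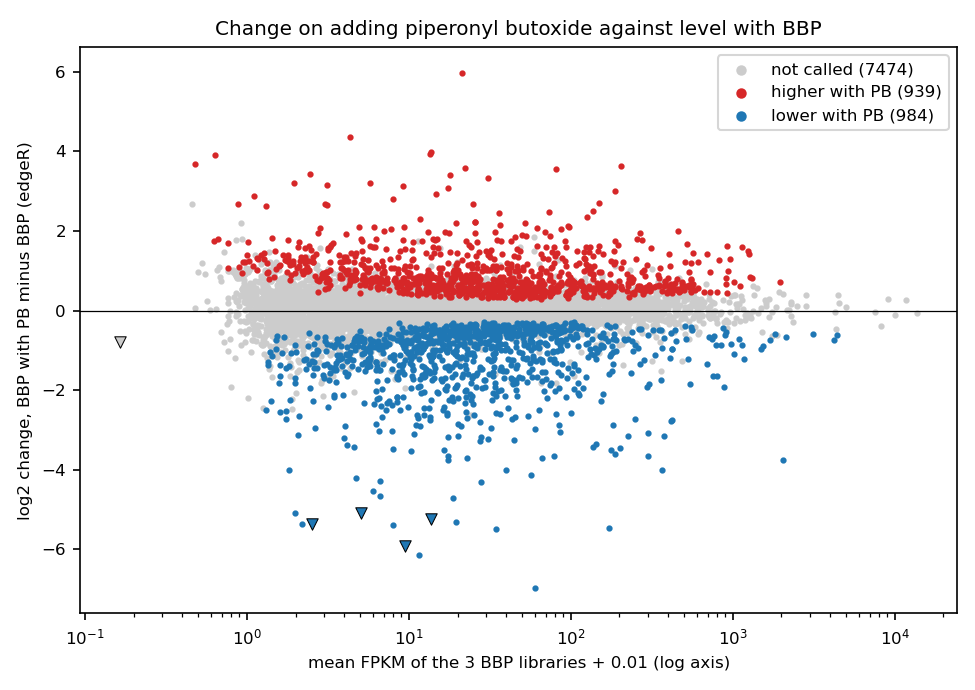
Log2 change on adding PB (vertical axis) against the mean FPKM of the 3 BBP libraries plus 0.01 (log axis), 1 point per gene. Triangles are the 5 genes with no count in any library with PB, drawn at the bound that a floor of 3 counts per library gives. The 939 higher and 984 lower genes include both weakly and strongly expressed ones.

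PLEOSDRAFT_1110004, an alcohol oxidase gene by its enzyme number (EC 1.1.3.13), had the largest log2 rise of all genes tested. Alcohol oxidases turn short alcohols into aldehydes with release of hydrogen peroxide. It stood at 0.342, 0.224 and 0.395 FPKM in the control libraries, 29.7, 8.99 and 25.2 with BBP and 1155, 1407 and 1175 with BBP and PB, a change of 5.97 ± 0.44 (adjusted p = 5.3e-05). Every library with PB was far above every other library. Another gene of the same enzyme number, PLEOSDRAFT_1109402, went the other way, from 195, 93.0 and 261 FPKM with BBP to 19.7, 20.7 and 29.1 with PB (-2.88 ± 0.36, adjusted p = 0.000671), below the controls at 130.4, 129 and 88.7. The other 2 genes of that number were not called. Thus 1 of 4 alcohol oxidase genes was higher and 1 lower (25% each, against 9.99% and 10.5% over all genes).

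Of 5 alcohol dehydrogenase genes, which interconvert alcohols and aldehydes, 4 were called higher (80%) and 0 lower by edgeR, against 9.99% and 10.5% over all genes. Their median change was 0.56. None was lower at an unadjusted p under 0.05, by DESeq2 or by limma. The largest rise was that of PLEOSDRAFT_1052916, from 8.59, 22.1 and 10.3 FPKM with BBP to 203, 198 and 201 with PB (3.98 ± 0.32, adjusted p = 7.48e-05). Its 3 values with PB were nearly equal, and BBP replicate 2 was the highest of the BBP libraries. The annotated S-(hydroxymethyl)glutathione dehydrogenase PLEOSDRAFT_1063808 rose less, from 282, 488 and 419.6 to 736, 657 and 559 FPKM (0.82 ± 0.24, adjusted p = 0.036). Formate dehydrogenase PLEOSDRAFT_1071241, which oxidises formate to carbon dioxide, stood at 189, 138 and 70.5 FPKM in the controls, 466, 456 and 465 with BBP and 1677, 1819 and 1618 with PB (1.99 ± 0.32, adjusted p = 0.00253). The 3 groups did not overlap. Catalase PLEOSDRAFT_1090819, which breaks down hydrogen peroxide, did not pass the test, at 779.9, 370.0 and 796 FPKM with BBP and 440.0, 589 and 641 with PB. The count of alcohol dehydrogenases dropped to 2 with total counts as the sole scaling or without any of BBP replicates 1 and 3 and PB replicates 1, 2 and 3, and PLEOSDRAFT_1063808 lost its call without each of these 5 libraries and without control replicate 2. PLEOSDRAFT_1052916 overlaps a gene on the other strand by 10 bases, and the strand setting of the counting is not given in the sources used here.

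Of 15 aldehyde dehydrogenase genes, which oxidise aldehydes to acids, 4 were higher (26.7%) and 2 lower (13.3%), against 9.99% and 10.5% over all genes. The lower count was 1 without any 1 of the 6 compared libraries or control replicate 2. PLEOSDRAFT_1108860 rose from 17.5, 42.6 and 17.1 FPKM to 101, 116 and 120.4 with PB (2.23 ± 0.32, adjusted p = 0.00139). Its relative PLEOSDRAFT_1090768 went from 256, 356 and 162 to 752, 874 and 882 FPKM (1.80 ± 0.36), and PLEOSDRAFT_1035376 from 79.0, 57.5 and 59.7 to 153, 186 and 150.1 FPKM (1.42 ± 0.15). In each of these the libraries with PB lay above all BBP and control libraries. PLEOSDRAFT_1045544, the most abundant of those named here, fell instead, from 1785, 1191 and 1670.1 FPKM to 673, 871 and 805 (-0.88 ± 0.16, adjusted p = 0.00501).

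**Figure D2:**
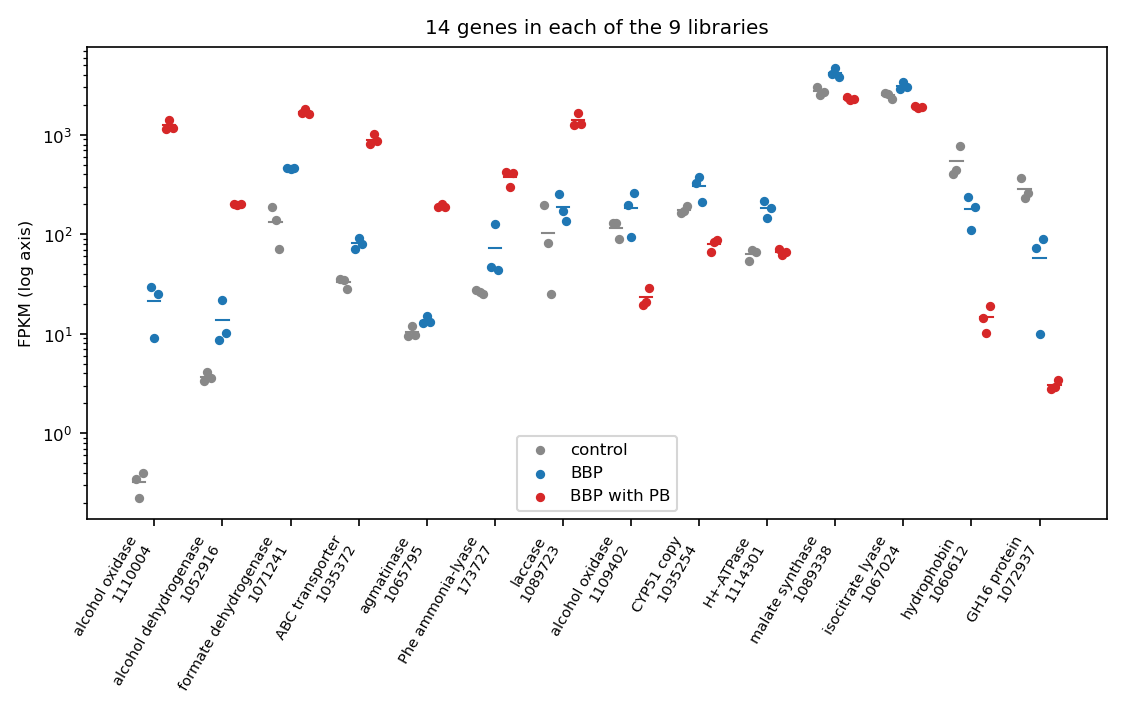
FPKM (log axis) of 14 genes in each of the 9 libraries. Points are libraries in replicate order, short lines group means, and colours the groups. The 7 genes on the left were higher with PB than with BBP and the 7 on the right lower. For each the red and blue points do not overlap.

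PB acts on cytochrome P450 enzymes, but neither of the lists that could be made from the annotation holds P450 genes alone. A list of P450-type and other monooxygenases, by enzyme number or ontology term, had 97 tested genes. Of these 19 were called higher (19.6%) and 14 lower (14.4%), against 9.99% and 10.5% over all genes. Their median was 0.08 (-0.03 with total counts as the sole scaling). The gene of this list with the largest rise, PLEOSDRAFT_1076619 (2.80 ± 0.21), also carries an orthology number of ribosome biogenesis. A list of 89 genes with the ontology terms heme binding and oxidation on paired donors, both of which P450 genes carry, had 11 higher (12.4%) and 18 lower (20.2%). Its median was -0.06. Among those of the second list that rose, PLEOSDRAFT_50083 went from 21.5, 33.6 and 19.6 FPKM to 144, 136 and 165 (2.68 ± 0.19, adjusted p = 5.27e-05). PLEOSDRAFT_49924 showed 6.81, 10.5 and 12.2 FPKM in the controls, 49.3, 59.9 and 41.1 with BBP and 152, 199 and 168 with PB (1.89 ± 0.19), with no overlap among the 3 groups. PLEOSDRAFT_1048809, annotated as an unspecific monooxygenase of fatty acids, rose from 79.6, 128 and 82.9 to 376, 395 and 399.6 FPKM (2.12 ± 0.18). In each of these 3 the order was control, BBP, BBP with PB, with no overlap between groups. PLEOSDRAFT_1032080 stood at 17.5, 27.5 and 28.7 FPKM in the controls, 1051, 404 and 944 with BBP and 186, 236 and 292 with PB (-1.65 ± 0.32, adjusted p = 0.00695), so the PB libraries lay between the other groups. PLEOSDRAFT_33357 fell from 4.31, 5.18 and 2.47 to 0.537, 0.334 and 0.305 FPKM (-3.20 ± 0.39). The counts of lower genes dropped to between 4 and 6 of 97, and to between 7 and 11 of 89, without any of BBP replicates 1 and 3 and PB replicates 1, 2 and 3, while those of higher genes of the first list dropped to between 10 and 12 without BBP replicate 1 or any 1 PB library.

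Cytochrome P450 reductases pass electrons to P450 enzymes, and fungi also have P450 and reductase fused in 1 protein. Among the genes named below, PLEOSDRAFT_1052853, PLEOSDRAFT_1074478 and PLEOSDRAFT_1034442 carry the enzyme numbers of both activities, the annotation of the fused kind. By annotation their values are thus not those of a separate reductase. Of 7 genes annotated with reductase activity 2 were called higher (28.6%, against 9.99% over all genes) and 0 lower. In FPKM 2 lay above BBP in all PB libraries and 2 below, without overlap. PLEOSDRAFT_157733 was not called, but it was called lower in some alternatives. These were DESeq2 (-0.87, adjusted p = 0.0308), total counts as the sole scaling (-0.98, adjusted p = 0.0437) and leaving out BBP replicate 2 (-1.15, adjusted p = 0.00682). PLEOSDRAFT_1052853 rose from 22.8, 24.4 and 24.0 to 34.6, 38.2 and 34.8 FPKM (0.70 ± 0.10, adjusted p = 0.00134), and PLEOSDRAFT_1074478 from 19.6, 22.6 and 19.7 to 30.6, 23.7 and 29.3 FPKM (0.54 ± 0.17, adjusted p = 0.0467). PLEOSDRAFT_1034442, the most abundant, did not pass the test, at 73.2, 72.8 and 47.5 FPKM with BBP and 64.6, 66.8 and 59.4 with PB. The call of PLEOSDRAFT_1074478 was lost in several alternatives, among them total counts as the sole scaling and leaving out BBP replicate 1 or 3, PB replicate 1 or 3, or control replicate 2.

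Sterol genes did not move as 1 group. CYP51 removes a methyl group from the sterol ring on the way to ergosterol, and 3 genes carry this annotation. PLEOSDRAFT_1035254 stood at 162, 171 and 194 FPKM in the controls, 326.6, 379 and 209 with BBP and 66.4, 82.9 and 88.1 with PB, a change of -1.84 ± 0.20 (adjusted p = 0.00032). It was above the controls in each BBP library and below them in each PB library. PLEOSDRAFT_1061968 rose from 32.3, 25.2 and 28.8 to 57.8, 57.6 and 57.7 FPKM (1.1096 ± 0.12, adjusted p = 0.00031). The last, PLEOSDRAFT_1047295, did not pass the test, at 123, 101 and 133 FPKM with BBP and 95.2, 90.0 and 83.2 with PB. Of the 37 steroid biosynthesis genes 5 were higher (13.5%) and 6 lower (16.2%), against 9.99% and 10.5% over all genes. Their median change was -0.12.

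The members that changed can be placed along the pathway. Squalene synthase PLEOSDRAFT_1040405, the first committed step, rose from 61.2, 52.1 and 62.5 to 93.3, 109 and 96.9 FPKM (0.87 ± 0.12). Squalene monooxygenase PLEOSDRAFT_1046279 fell from 7.23, 7.45 and 7.45 to 2.69, 1.39 and 2.01 FPKM (-1.75 ± 0.47). Of 3 genes for lanosterol synthase, which closes the rings, 2 were higher and PLEOSDRAFT_1096078 was not called. PLEOSDRAFT_48716 went from 6.46, 5.58 and 5.86 to 16.5, 17.4 and 16.4 FPKM (1.59 ± 0.15, adjusted p = 0.00015) and PLEOSDRAFT_1093934 from 43.6, 39.4 and 44.2 to 56.3, 55.3 and 56.8 FPKM (0.51 ± 0.12). The methylsterol monooxygenase PLEOSDRAFT_1068996, which takes part in the removal of ring methyl groups, was at 760.1, 711 and 910.2 FPKM with BBP and 381, 410.1 and 421 with PB (-0.87 ± 0.23, adjusted p = 0.0277). A further 2 genes of ring steps fell, the 3-keto sterol reductase PLEOSDRAFT_1038007 (-1.02 ± 0.28) and the delta14-sterol reductase PLEOSDRAFT_52286 (-0.37 ± 0.11), and the sterol 22-desaturase PLEOSDRAFT_1074782 rose (0.57 ± 0.16). The sixth lower member, PLEOSDRAFT_1064223, is annotated as a lipase and sterol esterase (-0.31 ± 0.09). The count of lower members dropped to 1 or 2 without BBP replicate 1 or 3 or any 1 PB library and rose to 9 with total counts as the sole scaling, and the higher ones numbered 3 with that scaling and without PB replicate 1 or 3. The calls of PLEOSDRAFT_1040405, PLEOSDRAFT_48716, PLEOSDRAFT_1035254 and PLEOSDRAFT_1061968 held in every alternative tried, and those of PLEOSDRAFT_1046279, PLEOSDRAFT_1068996, PLEOSDRAFT_1038007, PLEOSDRAFT_52286, PLEOSDRAFT_1093934, PLEOSDRAFT_1074782 and PLEOSDRAFT_1064223 were each lost on leaving out any of at least 2 libraries, BBP replicate 2 among them for PLEOSDRAFT_52286, PLEOSDRAFT_1074782 and PLEOSDRAFT_1064223. Members of this and the other families named past the rule for named genes were chosen after their values were seen.

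**Figure D3:**
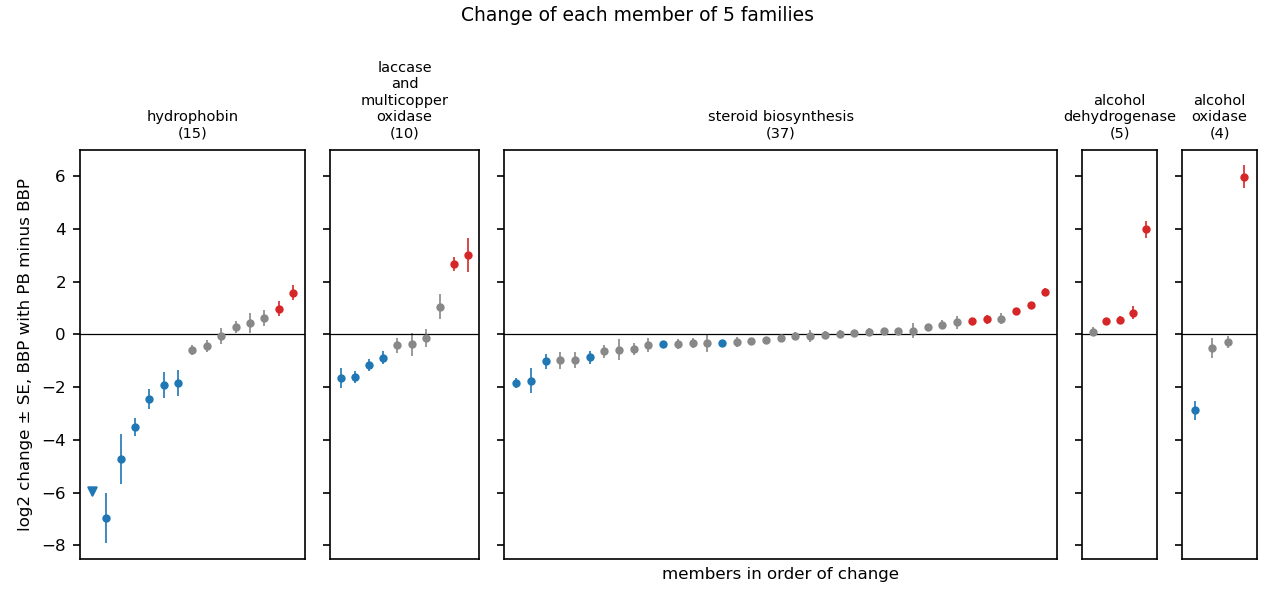
Log2 change ± SE of each tested member of 5 families, in order of change, with the number of members in parentheses. Red points were called higher, blue lower and grey neither. The triangle is a hydrophobin with no count in any PB library, at its bound. Hydrophobins and laccases lie mostly below 0 with a few members above, and steroid biosynthesis genes on both sides.

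Efflux pumps of the ABC (ATP-binding cassette) type, which use ATP to move compounds across membranes, were higher more often than lower. Of 32 genes 7 rose (21.9%) and 3 fell (9.38%), against 9.99% and 10.5% over all genes, so the share of falls was near that over all genes. Their median was 0.15. PLEOSDRAFT_1035372, with the orthology number of the pleiotropic drug resistance pumps, stood at 35.4, 34.6 and 28.3 FPKM in the controls, 71.5, 92.6 and 80.1 with BBP and 811, 1018 and 859 with PB (3.56 ± 0.18, adjusted p = 6.05e-06). PLEOSDRAFT_1056093, of the same orthology number, showed 8.35, 12.2 and 9.51 FPKM in the controls, 49.8, 61.6 and 45.3 with BBP and 204, 237 and 233 with PB (2.21 ± 0.16, adjusted p = 5.27e-05). For both the groups did not overlap, with BBP above the controls and PB above BBP. PLEOSDRAFT_1097506, of the multidrug resistance type, overlapped its control values of 106, 136 and 106 FPKM with BBP, at 126, 133 and 114, and reached 358, 343 and 354 with PB (1.605 ± 0.12). PLEOSDRAFT_1108381, of the same type and barely expressed, fell from 2.60, 1.13 and 2.48 to 0.107, 0.345 and 0.184 FPKM (-3.14 ± 0.51). The 7 higher calls also numbered 7 with total counts as the sole scaling, and the lower ones dropped to 1 without BBP replicate 1 or PB replicate 1 or 2.

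Glutathione transferases attach glutathione to foreign compounds. Of 10 genes 1 was higher and 1 lower, and the glutathione metabolism list had 3 and 3 of 34, both near the shares over all genes (9.99% higher and 10.5% lower). PLEOSDRAFT_1055238 fell from 84.9, 63.3 and 155 FPKM to 11.5, 16.4 and 19.4 (-2.58 ± 0.40, adjusted p = 0.00222), below its controls at 39.4, 57.5 and 23.1. PLEOSDRAFT_1098273 rose from 17.6, 19.0 and 17.2 to 24.9, 23.9 and 29.6 FPKM (0.65 ± 0.13). Glutathione reductase PLEOSDRAFT_1052717, which regenerates reduced glutathione, fell from 144, 139 and 164 to 67.6, 67.9 and 76.4 FPKM (-0.97 ± 0.12, adjusted p = 0.000757), to slightly below its controls at 84.7, 91.8 and 76.7.

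In central carbon metabolism, 4 of the most abundant genes fell with PB, and the pathway lists differed in their counts. Malate synthase PLEOSDRAFT_1089338 and isocitrate lyase PLEOSDRAFT_1067024 form the glyoxylate bypass, which lets cells build sugars from acetyl-CoA. Malate synthase stood at 3040.4, 2528 and 2703 FPKM in the controls, 4085, 4655 and 3845 with BBP and 2421, 2254 and 2290.2 with PB (-0.75 ± 0.15, adjusted p = 0.00772). Isocitrate lyase showed 2642, 2573 and 2296 FPKM in the controls, 2905, 3366 and 3066 with BBP and 1956, 1876 and 1904 with PB (-0.60 ± 0.14, adjusted p = 0.0131). Both were lower with PB than in any other library. Glyceraldehyde 3-phosphate dehydrogenase PLEOSDRAFT_1090663, a glycolytic enzyme, was at 2712, 2979 and 2911 FPKM in the controls, 4615, 4391 and 4127 with BBP and 2433, 2654 and 2863 with PB (-0.62 ± 0.11, adjusted p = 0.00511), so the PB libraries overlapped the controls or lay below them. A phosphoketolase, PLEOSDRAFT_1090331, fell from 2276, 2001 and 2092 to 1065, 1317 and 1369 FPKM (-0.66 ± 0.15), against 1396, 1159 and 1393 in the controls. Isocitrate lyase lost its call without PB replicate 2 or 3, and PLEOSDRAFT_1090331 without BBP replicate 1 or PB replicate 1.

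Of 37 citrate cycle genes 13 were called higher and 1 lower, with a median of 0.29. The rises were small, the largest among them 0.79. They included both annotated subunits of succinyl-CoA ligase, PLEOSDRAFT_1054058 (0.50 ± 0.13) and PLEOSDRAFT_1095962 (0.43 ± 0.12), a subunit of 2-oxoglutarate dehydrogenase, PLEOSDRAFT_1077982 (0.49 ± 0.10), and 3 of 6 dihydrolipoyl acetyltransferase genes of the pyruvate dehydrogenase complex, of which PLEOSDRAFT_1080979 went from 7.25, 9.33 and 7.68 to 12.3, 13.6 and 12.9 FPKM (0.78 ± 0.15). Of 3 citrate synthase genes 1 was called in each direction. PLEOSDRAFT_1067387, which overlaps a gene on the other strand by 54 bases, was higher, at 863, 787 and 756 FPKM against 557, 612 and 521, and PLEOSDRAFT_1110467 lower, at 628, 577 and 587 against 886, 933 and 792. Both calls were lost without control replicate 2, BBP replicate 1 or 2 or any 1 PB library, and that of PLEOSDRAFT_1067387 also without BBP replicate 3. The third gene, PLEOSDRAFT_1113795, was not called. The succinyl-CoA ligase calls were lost with scaling by total counts alone, with limma and without any of BBP replicates 2 and 3 and PB replicates 1 and 3, and that of PLEOSDRAFT_1095962 also without PB replicate 2. With total counts as the sole scaling the citrate cycle had 4 higher and 4 lower genes and a median of 0.18, and without each of the 6 compared libraries in turn between 3 and 8 were higher. Glycolysis and gluconeogenesis had 20 of 57 higher and 6 lower (median 0.30), or 12 and 8 with that scaling, and 10 to 12 higher without any compared library other than BBP replicate 2. Fatty acid degradation had 16 of 49 higher and 3 lower (median 0.20), with 10 higher under that scaling or without PB replicate 3. Glyoxylate and dicarboxylate metabolism had 4 higher and 6 lower of 37 (10.8% and 16.2%), and the pentose phosphate pathway 3 and 4 of 31 (9.68% and 12.9%). The shares over all genes were 9.99% and 10.5%. Methane metabolism had 7 and 7 of 23, or 30.4% in each direction. The higher counts of the glyoxylate and methane lists fell to 2 and 4 without BBP replicate 1 or 3, any 1 PB library or control replicate 2. That of the pentose phosphate pathway ranged from 1 without PB replicate 1 to 6 without BBP replicate 2.

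**Figure D4:**
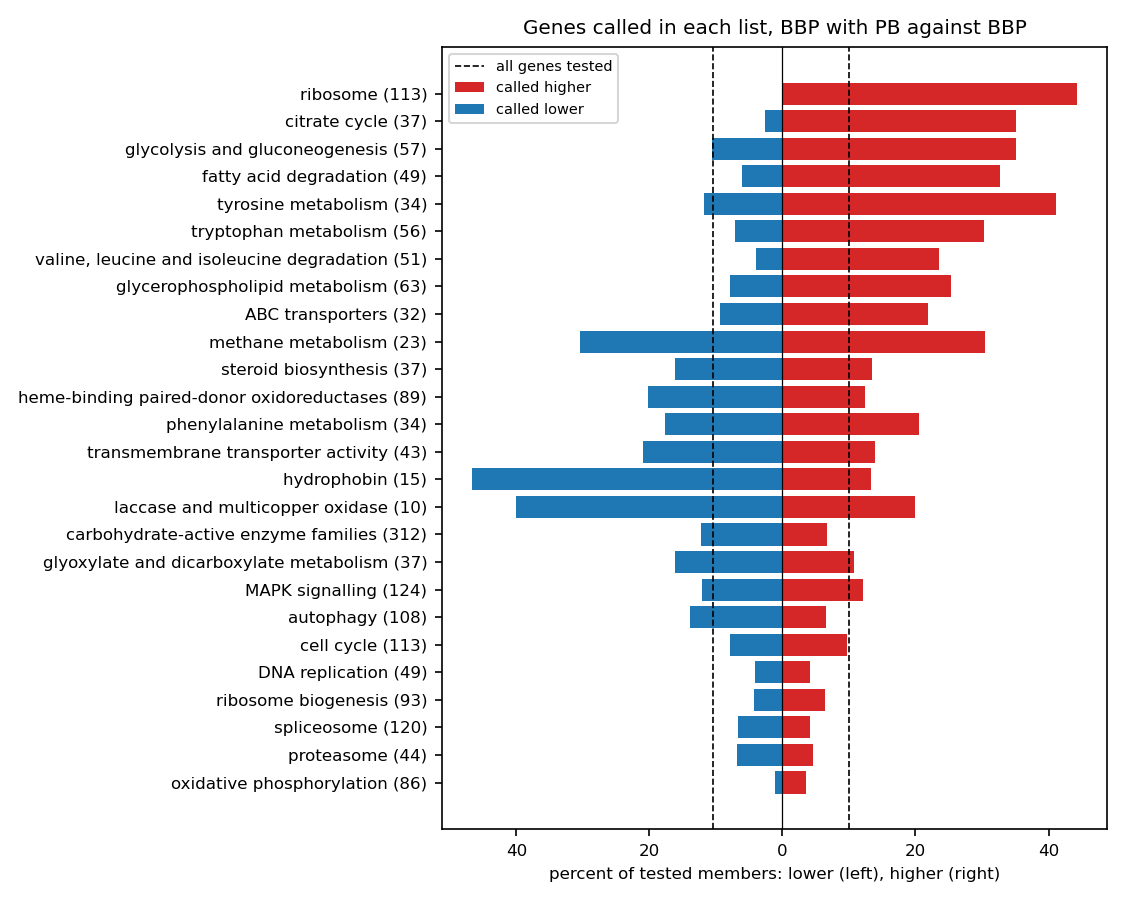
Share of tested members called higher (right, red) and lower (left, blue) in 26 gene lists, with the number tested in parentheses. Dashed lines mark the shares over all 9397 genes, 9.99% higher and 10.5% lower. Ribosome, tyrosine and glycolysis lists lie beyond the right line. Hydrophobins (13.3% higher, 46.7% lower) and laccases (20% higher, 40% lower) lie beyond both lines, as does the tyrosine list (11.8% lower).

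The amino acid lists differed from each other. The tyrosine list had 14 of 34 higher and 4 lower (median 0.35), the tryptophan list 17 of 56 and 4 (median 0.21), and the valine, leucine and isoleucine degradation list 12 of 51 and 2 (median 0.22). The phenylalanine list had 7 and 6 of 34, the glycine, serine and threonine list 10 and 9 of 75, and the cysteine and methionine list 6 and 5 of 49, or 7 and 7, 10 and 13, and 2 and 9 with total counts as the sole scaling. In the order given, the shares higher were 41.2%, 30.4%, 23.5%, 20.6%, 13.3% and 12.2%, against 9.99% over all genes. The shares lower were 11.8%, 7.14%, 3.92%, 17.65%, 12% and 10.2%, against 10.5%. The glycine, serine and threonine and the cysteine and methionine lists were thus near the shares over all genes. These lists share members, such as the aldehyde dehydrogenases above. Agmatinase PLEOSDRAFT_1065795, which forms putrescine from agmatine, stood at 9.49, 11.9 and 9.79 FPKM in the controls, 12.7, 14.9 and 13.1 with BBP and 189, 202 and 186 with PB (3.93 ± 0.12, adjusted p = 2.66e-07), the smallest p of the genes named. Control and BBP libraries were close to each other, and the PB libraries stood alone. Phenylalanine ammonia-lyase PLEOSDRAFT_173727, which makes cinnamate, went from 47.1, 128 and 44.0 to 419.7, 299 and 417 FPKM (2.48 ± 0.38, and 3.16 without BBP replicate 2, the highest of the BBP libraries). Homogentisate dioxygenase PLEOSDRAFT_1107843, which opens the ring in tyrosine breakdown, rose from 5.56, 8.17 and 4.61 to 20.0, 29.6 and 23.2 FPKM (2.09 ± 0.22). A copper amine oxidase, PLEOSDRAFT_1040945, rose from 1.19, 1.46 and 0.660 to 8.07, 5.54 and 9.11 FPKM (2.88 ± 0.32). An amidase, PLEOSDRAFT_162326, fell from 77.4, 23.4 and 135 to 3.22, 7.15 and 6.99 FPKM (-3.67 ± 0.58, and -3.01 without BBP replicate 3). With total counts as the sole scaling the higher calls were 11 for tyrosine, 12 for tryptophan and 6 for valine, leucine and isoleucine, and the last numbered 6 or 7 without BBP replicate 1 or 3 or any 1 PB library and 19 without BBP replicate 2.

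The urea-forming enzyme arginase had 2 annotated genes that moved in opposite directions. PLEOSDRAFT_1087775, which overlaps a gene on the other strand by 28 bases, rose from 136, 261 and 160.3 to 438, 467 and 546 FPKM (1.49 ± 0.22, adjusted p = 0.00157). PLEOSDRAFT_1067181 fell from 17.5, 44.4 and 13.1 to 4.73, 5.55 and 3.28 FPKM (-2.36 ± 0.45, adjusted p = 0.00633). Leaving out BBP replicate 2, its highest library, gave a change of -1.65. A nitrite reductase, PLEOSDRAFT_1037806, which reduces nitrite to ammonium, showed 34.8, 42.1 and 24.8 FPKM in the controls, 126, 96.5 and 141 with BBP and 239, 415 and 279 with PB (1.47 ± 0.26). An aspartate-tRNA ligase, PLEOSDRAFT_1047685, which charges tRNA for protein synthesis, stood at 158, 172 and 160.0 FPKM in the controls, 586, 909 and 574 with BBP and 1530.0, 1897 and 1752 with PB (1.43 ± 0.18, adjusted p = 0.000757). For both, the 3 groups did not overlap. A sulfite reductase, PLEOSDRAFT_1112155, of sulfate assimilation, fell from 23.0, 24.2 and 15.1 to 7.58, 9.39 and 8.19 FPKM (-1.20 ± 0.25).

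Ribosomal proteins build the particles that make protein. Of 113 tested genes 50 were called higher (44.2%) and 0 lower by edgeR, with a median of 0.43 against -0.01 over all genes. At an unadjusted p under 0.05 there were 3 lower, and limma called 2 and DESeq2 0. PLEOSDRAFT_1096799 went from 244, 294 and 189.98 to 417, 321 and 434 FPKM (0.79 ± 0.17, adjusted p = 0.0113) and PLEOSDRAFT_1025128 from 576, 652 and 427 to 886, 755 and 1008 FPKM (0.78 ± 0.16). For both, BBP replicate 3 was the lowest and BBP replicate 2 the highest of the BBP libraries, and the call of PLEOSDRAFT_1096799 was lost without PB replicate 3. The count was 23 higher and 1 lower with total counts as the sole scaling, and 25, 18, 14 and 12 higher without BBP replicate 1, BBP replicate 3, PB replicate 1 and PB replicate 3. Ribosome biogenesis had 6 higher and 4 lower of 93 and a median of -0.06. The DNA replication list had 2 higher and 2 lower of 49 (4.08% each, against 9.99% and 10.5% over all genes) but a median of 0.40. In FPKM 22 of its genes lay above BBP in all 3 PB libraries and 7 below, without overlap. Over all genes tested the shares without overlap were 15.6% above and 29.6% below. The list's higher calls numbered 21 without control replicate 3 and 4 without control replicate 1, and 19 with the 6 compared libraries alone.

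Among lipid genes, glycerophospholipid metabolism had 16 of 63 higher (25.4%) and 5 lower (7.94%), against 9.99% and 10.5% over all genes. Its median was 0.14. With total counts as the sole scaling the counts were 11 and 5, and 10 were higher without PB replicate 3. PLEOSDRAFT_1063846, with an ester hydrolase number, rose from 62.0, 78.6 and 68.1 to 259, 251 and 249.98 FPKM (1.97 ± 0.17, adjusted p = 0.00011) and PLEOSDRAFT_1060369, also annotated as an esterase, fell from 23.0, 13.98 and 23.5 to 3.47, 4.06 and 4.66 FPKM (-2.21 ± 0.21). A fatty acid desaturase, PLEOSDRAFT_1092456, which puts a double bond into acyl chains, rose from 10.1, 8.54 and 9.34 to 37.2, 40.9 and 33.8 FPKM (2.11 ± 0.13, adjusted p = 2.48e-05). In sphingolipid metabolism a sphingomyelinase-type gene, PLEOSDRAFT_1095758, rose from 19.1, 46.4 and 11.4 to 108, 104 and 124 FPKM (2.23 ± 0.42, and 2.98 without BBP replicate 2), and a ceramidase, PLEOSDRAFT_1065698, fell from 76.3, 60.7 and 62.0 to 22.9, 24.9 and 30.4 FPKM (-1.24 ± 0.23).

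Hydrophobins coat hyphae with a water-repellent film. The descriptions name 25, of which 15 passed the level filter and 10 did not. Of the 15, 7 were lower (46.7%) and 2 higher (13.3%), against 10.5% and 9.99% over all genes. Their median was -0.59. Vmh2 (PLEOSDRAFT_1091049) was at 102, 10.5 and 68.3 FPKM with BBP and 0.767, 0 and 0.512 with PB (-6.96 ± 0.95, adjusted p = 0.00103). It was at or near 0 with PB, and its change was -6.36 without BBP replicate 1 and -7.76 without PB replicate 1. PLEOSDRAFT_163649 stood at 31.0, 31.2 and 89.3 FPKM in the controls and 13.5, 4.28 and 10.5 with BBP and had 0 counts in each PB library, at least 60.98-fold lower by a floor of 3 counts per library. PLEOSDRAFT_1060612 was at 408, 444 and 774 FPKM in the controls, 238, 109.8 and 187 with BBP and 14.4, 10.2 and 19.2 with PB (-3.51 ± 0.35, adjusted p = 0.000212). These 3 genes stood lower with BBP than in the controls and lower still with PB. Hydrophobin 3 (PLEOSDRAFT_1114379) fell from 11.0, 13.8 and 12.4 to 1.68, 2.75 and 1.76 FPKM (-2.46 ± 0.38). PLEOSDRAFT_35044 fell by 4.71 on the log2 scale, or by 3.18 without BBP replicate 2, which held 43.0 FPKM of it. PLEOSDRAFT_166938 and PLEOSDRAFT_171316 were likewise highest in that library, and without it the change of the first was -1.159 (adjusted p = 0.0626) and that of the second -1.065 (adjusted p = 0.042). Both calls were lost without any 1 of the PB libraries, and that of PLEOSDRAFT_166938 without BBP replicate 1. The other direction was taken by PLEOSDRAFT_160070, from 4.79, 7.35 and 6.47 to 17.8, 18.0 and 16.3 FPKM (1.58 ± 0.28), and by PLEOSDRAFT_156845 (0.97 ± 0.29), whose call was lost with total counts as the sole scaling and without BBP replicate 1 or 2 or any 1 PB library. Hydrophobin and laccase genes form families of similar sequence, and reads may have been split between copies.

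Laccases are copper enzymes that oxidise phenols and take part in lignin decay. Of 10 tested genes of this kind 2 were higher (20%) and 4 lower (40%), against 9.99% and 10.5% over all genes. The laccase PLEOSDRAFT_1089723 stood at 199, 82.2 and 25.2 FPKM in the controls, 255, 170.3 and 135 with BBP and 1269, 1647 and 1277 with PB (3.01 ± 0.64, adjusted p = 0.00955). All PB libraries were above all others. PLEOSDRAFT_51622 rose from 3.12, 3.30 and 2.99 to 17.5, 16.9 and 21.1 FPKM (2.66 ± 0.28, adjusted p = 0.000239). The multicopper oxidase PLEOSDRAFT_156449 stood at 292, 311 and 228 FPKM in the controls, 111, 69.6 and 82.0 with BBP and 27.8, 20.1 and 31.8 with PB (-1.61 ± 0.23), so each group lay below the one before. The small laccase subunit POXA3a, PLEOSDRAFT_1047518, fell from 40.1, 13.6 and 45.7 to 8.68, 10.6 and 10.4 FPKM (-1.64 ± 0.38), as did the laccases PLEOSDRAFT_1113032 (-1.15 ± 0.24) and PLEOSDRAFT_1106925 (-0.89 ± 0.25). The call of PLEOSDRAFT_1047518 was lost without any of BBP replicates 1 and 3 and PB replicates 1 and 3, and that of PLEOSDRAFT_1106925 without any of BBP replicates 1 and 2 and PB replicates 2 and 3, which left 2 lower calls without BBP replicate 1 or PB replicate 3. A DyP-type peroxidase, PLEOSDRAFT_62271, changed by -1.76 ± 0.35 and was one of 2 peroxidases of 8 called lower (25%). The other, the putative versatile peroxidase PLEOSDRAFT_1089895, went from 7.42, 0.676 and 11.5 to 0.464, 1.107 and 0.662 FPKM (-3.03 ± 0.78), with the call lost with limma and without BBP replicate 1, BBP replicate 3 (-2.32, adjusted p = 0.0703) or any 1 PB library.

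Carbohydrate-active enzymes build and trim cell walls and digest plant polymers. Of 312 tested 21 were higher (6.73%) and 38 lower (12.2%), with a median of -0.08, near the shares over all genes. The lower count dropped to between 15 and 17 without BBP replicate 1 or any 1 PB library. A glycoside hydrolase of family GH16, PLEOSDRAFT_1072937, had the largest fall, with 371, 231 and 261 FPKM in the controls, 72.2, 9.96 and 89.2 with BBP and 2.76, 2.91 and 3.40 with PB (-4.14 ± 0.67, adjusted p = 0.00264). A family GH79 gene, PLEOSDRAFT_1059085, went from 39.2, 25.3 and 31.5 to 3.80, 4.29 and 3.38 FPKM (-2.96 ± 0.22, adjusted p = 5.34e-05). In family GH3, which holds many beta-glucosidases, PLEOSDRAFT_1034680 fell (-2.37 ± 0.29) while PLEOSDRAFT_1081613 rose (1.19 ± 0.22). Another GH3 gene, PLEOSDRAFT_1031764, had the largest rise of the carbohydrate-active enzymes at a low level, from 0.417, 1.75 and 0.432 to 5.23, 4.27 and 6.09 FPKM (2.67 ± 0.49, and 3.70 without BBP replicate 2). In carbohydrate esterase family CE4, which holds chitin deacetylases, PLEOSDRAFT_1113735 rose from 46.0, 72.0 and 41.5 to 177, 160.0 and 206 FPKM (1.87 ± 0.20) and PLEOSDRAFT_175606 fell from 117, 89.9 and 109 to 23.3, 26.3 and 25.3 FPKM (-1.97 ± 0.14). Of 9 expansin-like genes, whose relatives loosen plant walls, 2 rose and 2 fell (22.2% each, against 9.99% and 10.5% over all genes). PLEOSDRAFT_1045423 rose from 17.5, 21.8 and 19.6 to 84.9, 74.7 and 91.7 FPKM (2.19 ± 0.36), overlapping its control values of 49.9, 63.5 and 166.

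Other falls concerned a protease, an ion pump and a metal transporter. A peptidase, PLEOSDRAFT_1088548, fell from 183, 71.8 and 155 to 10.03, 12.8 and 12.7 FPKM (-3.43 ± 0.42, adjusted p = 0.000611), far below its controls at 235, 240.0 and 102. A proton ATPase, PLEOSDRAFT_1114301, which drives nutrient uptake across the plasma membrane, stood at 53.6, 69.4 and 66.7 FPKM in the controls, 218, 144 and 186 with BBP and 71.6, 62.6 and 66.5 with PB (-1.34 ± 0.15, adjusted p = 0.000364), so the PB libraries overlapped the controls. A transporter of the ZIP superfamily, whose members carry zinc, PLEOSDRAFT_1066344, fell from 1853, 1648 and 1580.1 to 860.1, 884 and 1099 FPKM (-0.73 ± 0.19), with the call lost without BBP replicate 1 or PB replicate 1 or 2.

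Several of the genes with the largest differences in level carry no annotation of their product. PLEOSDRAFT_1105204 stood at 152, 68.5 and 43.8 FPKM in the controls, 252, 220.2 and 139.9 with BBP and 2359, 2467 and 2169.6 with PB (3.62 ± 0.46, adjusted p = 0.000719), the largest rise in mean FPKM of all genes. PLEOSDRAFT_160242 went from 1.86, 8.95 and 2.18 to 88.7, 87.2 and 74.2 FPKM (4.36 ± 0.53, and 5.46 without BBP replicate 2). PLEOSDRAFT_1101558 reached 2967, 3548 and 3136 FPKM with PB from 927, 1454 and 1039 with BBP (1.601 ± 0.22), and PLEOSDRAFT_154767 reached 3284, 3325 and 3134 from 1111, 1716 and 925 (1.48 ± 0.22). The genes PLEOSDRAFT_1089182 and PLEOSDRAFT_1090594 were below their controls with BBP and above them with PB. The first showed 1263, 1647 and 1265 FPKM in the controls, 998, 761 and 992 with BBP and 2623, 2769 and 2460.0 with PB (1.62 ± 0.15), and the second 1753, 2623 and 1861 FPKM in the controls, 1245, 1164 and 1396 with BBP and 3029, 3489 and 2969.6 with PB (1.42 ± 0.16). Downward, PLEOSDRAFT_1090489 was among the abundant genes of the controls, at 3865, 3522 and 2869 FPKM, varied with BBP, at 2160.4, 836 and 3153, and dropped to 113, 170.5 and 141 with PB (-3.75 ± 0.44, adjusted p = 0.000421).

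Of the 9397 genes 5 had no count in any PB library, and 4 of them passed the test. They are PLEOSDRAFT_163649, the hydrophobin above, PLEOSDRAFT_1073041, at least 41.3-fold lower, PLEOSDRAFT_171103, at least 34.1-fold lower, and PLEOSDRAFT_159791, at least 38.1-fold lower by the same floor. For the last most counts came from BBP replicate 2, without which the bound was 8.06-fold, and its call was lost without any of the PB libraries. The bounds cover counting error only.

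The share of genes without annotation was compared between strong rises and strong falls, without a test. Of the genes tested 34.1% had neither a product, an enzyme or orthology number nor an ontology term, against 36.3% of those higher by at least 1 log2 unit and 45.8% of those lower by at least 1.

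Some called genes stood next to each other on the scaffolds. Counting neighbours among the genes tested, 11 runs of at least 4 genes called in 1 direction were found, 5 of them higher and 6 lower, with 48 genes in all. The runs were picked after the values were seen, and no test was made of them. The longest held 6 lower genes over 16594 bases. In order these are PLEOSDRAFT_1108467, a flavin oxidoreductase by its ontology terms, PLEOSDRAFT_1048495, with a trichodiene synthase term, PLEOSDRAFT_1079208 and PLEOSDRAFT_1059179, both with the heme binding and paired-donor terms, PLEOSDRAFT_1108470, which has no annotation, and PLEOSDRAFT_1114195, again a flavin oxidoreductase. Trichodiene synthases form the carbon skeleton of sesquiterpenes, and fungal genes for such products often lie side by side with oxidising enzymes.

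All 6 were expressed in the controls. The synthase-type gene PLEOSDRAFT_1048495 stood at 5.27, 10.9 and 12.9 FPKM in the controls, 3.93, 1.54 and 4.89 with BBP and 0.832, 1.22 and 1.32 with PB (-1.51 ± 0.44, adjusted p = 0.0381). PLEOSDRAFT_1114195 had the largest fall, from 24.0, 8.79 and 50.3 to 3.41, 2.20 and 2.31 FPKM (-3.29 ± 0.53, and -2.51 without BBP replicate 3), against 45.0, 37.6 and 44.7 in the controls. PLEOSDRAFT_1108467 fell from 11.7, 5.09 and 11.3 to 2.59, 2.59 and 3.43 FPKM (-1.601 ± 0.29). PLEOSDRAFT_1108470 was at 16.4, 7.81 and 31.1 FPKM with BBP and 4.88, 5.07 and 6.38 with PB (-1.66 ± 0.42, and -1.04 without BBP replicate 3, adjusted p = 0.0522). PLEOSDRAFT_1079208 changed by -1.37 ± 0.37 and PLEOSDRAFT_1059179 by -0.49 ± 0.11. Not all of these calls held on leaving out 1 library. The call of PLEOSDRAFT_1048495 was lost without BBP replicate 1 or 3, any 1 PB library or control replicate 2 and with limma on log2(FPKM + 1). That of PLEOSDRAFT_1079208 was lost without any of BBP replicates 1 and 3 and PB replicates 1 and 3 and likewise with limma, that of PLEOSDRAFT_1059179 without BBP replicate 1 or PB replicate 2, and that of PLEOSDRAFT_1108470 also without any 1 PB library. For each gene the PB libraries lay below all BBP and control libraries. BBP replicate 2 was the lowest BBP library for each of the 6.

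**Figure D5:**
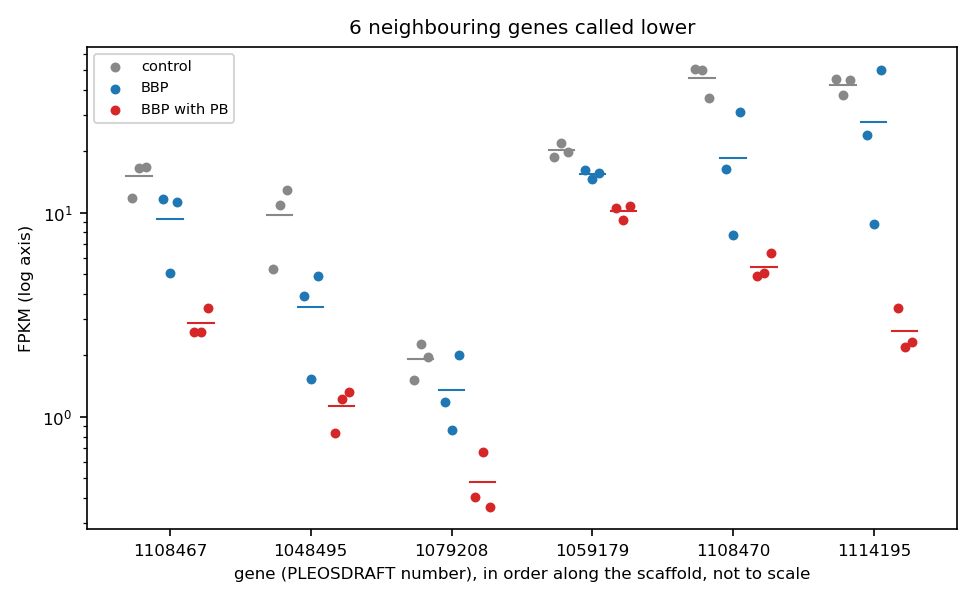
FPKM (log axis) of the 6 neighbouring genes in each of the 9 libraries, in their order along the scaffold. Points are libraries in replicate order, short lines group means. For all 6 the red points (BBP with PB) lie below the blue (BBP) and grey (control) points.

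A run of 4 genes called higher, over 14493 bases, also begins with a sesquiterpene synthase by annotation, PLEOSDRAFT_1060726, which was higher by 0.95 on the log2 scale. Its neighbours PLEOSDRAFT_1051916, with a chaperone-binding term, PLEOSDRAFT_1051920, a septin by its terms, and PLEOSDRAFT_1091296, a phospholipid-translocating ATPase, were higher by 0.56, 0.35 and 1.162. As in the runs described, few genes of the other runs of at least 4 have a product name, and several carry enzyme numbers or ontology terms. Those other runs are not described gene by gene.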

How the data were processed

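The submitters' processing notes name fastp, HISAT2 and StringTie. The genome build, the annotation version, the counting tool and its strand setting were not found in the labels or file headers, so no coordinates or sequences are printed. The deposited table holds raw read counts per gene made by the authors, and beside them FPKM made by the authors. Each column carries its sample's name. The 59 tRNA rows and 1226 mRNA rows below a mean of 1 FPKM were left out. None of the identifiers matched the 11849 genes of the reference table.

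Counts were scaled by TMM and fitted with edgeR 4.0.16 (quasi-likelihood, limma 3.58.1, R 4.3.3) in 1 model with 3 groups over the 9 libraries, 2-sided, with Benjamini-Hochberg adjustment over 9397 genes, and genes were called at an adjusted p under 0.05. The fit was tested on simulated data. DESeq2 1.42.0 and limma on log2(FPKM + 1) were alternatives. Python 3.11.15 with pandas 2.3.3 made the tables and matplotlib 3.10.9 the figures.

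Members and the 64 lists, built from KEGG pathways, enzyme numbers and description words, were chosen with earlier results of these data known, and 1 list (heme binding with paired donors) was added after the annotation columns were read. Named genes follow a rule: the 12 largest annotated rises and falls without overlap and at least 10 FPKM in the higher group, the 8 largest rises and falls in mean FPKM, up to 3 called members of each list, all CYP51 and P450 reductase genes, and the 2 largest rises and falls without annotation. Others were chosen after their values were seen. Product names are annotations, not measured activities.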

Additional observations from a re-analysis of the deposited data

How the results depend on the processing

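With total counts as the sole scaling 618 genes were higher and 1324 lower, 31.8% of calls higher against 48.8%. DESeq2 called 1155 and 1272, limma on log2(FPKM + 0.1) 638 and 1261, and the 6 compared libraries alone 1155 and 1153. Without each library in turn, 515 to 1268 genes were higher and 536 to 1192 lower, with 547 and 558, 1017 and 1070, and 648 and 719 without BBP replicates 1, 2 and 3, 588 and 548, 583 and 574, and 515 and 536 without PB replicates 1, 2 and 3, and 1268 and 1192 without control replicate 3. Of the 250 named genes 63, 23 and 52 lost their call without BBP replicates 1, 2 and 3, and 70, 62 and 70 without PB replicates 1, 2 and 3. Direction changed for 4 named genes, none of them called: PLEOSDRAFT_1034442 (-0.027 with total counts as the sole scaling, and -0.086 to 0.19 without each library in turn, the lowest without BBP replicate 3), PLEOSDRAFT_1090819 (-0.40 to 0.065, above 0 without BBP replicate 1, BBP replicate 3 or PB replicate 1), PLEOSDRAFT_1050539 (-0.292 to 0.081, above 0 without BBP replicate 2) and PLEOSDRAFT_1090164 (-0.39 to 0.055, above 0 without PB replicate 1). The cause was not tested. The labels do not say that replicate numbers pair the samples, and deviations of same-numbered libraries correlated at -0.144 to 0.156. With the replicate block 780 genes were higher and 785 lower.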

Other observations

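Counts of lists not described above are set against 9.99% higher and 10.5% lower over all genes tested. Oxidative phosphorylation had 3 higher and 1 lower of 86, and 7 and 2 without BBP replicate 2. Autophagy had 7 higher and 15 lower of 108 (6.48% and 13.9%, median -0.07), and MAPK signalling, the kinase cascades that answer to pheromone and stress, 15 and 15 of 124 (12.1% each, median 0.01). The autophagy calls fell to 4 higher and 8 lower without PB replicate 2, and the lower MAPK signalling calls to between 5 and 7 without BBP replicate 1 or any 1 PB library.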
